A study of Mus musculus with 3 samples.

Results

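Chemokine receptors are surface receptors that couple to inhibitory G proteins and steer immune cells along gradients of secreted chemokines, and 9 of them were followed here across the immune cells of mouse neuroblastoma: Ccr1, Ccr2, Ccr7, Ccr9, Cx3cr1, Cxcr3, Cxcr4, Cxcr5 and Cxcr6. The list was set by name and not by a rule on measured values, but with earlier results of these data known. All 9 were found among the 31053 genes of the raw count tables. Single-cell RNA was taken from 3 whole tumors, 1 per mouse and all of 1 group, from TH-MYCN animals heterozygous for the transgene that were 62 (tumor 1), 79 (tumor 2) and 63 days old (tumor 3). In this model the promoter of tyrosine hydroxylase (TH) drives human MYCN in cells of the sympathetic lineage, so that tumors arise in mice whose own immune system is present. Tumors were minced, digested with Liberase and DNase and loaded without a sort for immune cells, on the 10x Genomics 3′ platform, version 3.1. The labels name no treatment and the series holds no tumor-free group, so the comparisons below are between cell classes of the same tumors.

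Most immune cells carry several of these receptors, and the set changes as a cell matures, enters the blood or arrives in a tissue. As background, Ccr2 and its ligands release classical monocytes from the bone marrow, Cx3cr1 keeps nonclassical monocytes in the vessels and marks many tissue macrophages, and Cxcr4 with its ligand Cxcl12 holds leukocytes in the marrow. Ccr7 and Cxcr5 guide T and B cells within lymphoid organs, Cxcr3 and Cxcr6 are carried by activated and tissue-seeking lymphocytes, and Ccr9 directs precursors to the thymus and lymphocytes to the gut.

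The receptors were counted as unique molecular identifiers (UMIs), each standing for 1 captured transcript, over the 5650 cells that the authors kept (1914, 1221 and 2515 in tumors 1, 2 and 3). Kept cells held a median of 4282.5, 1594 and 1816 UMIs in the same order, and the total of UMIs was 12628163, 2740537 and 5215401. Cells were grouped by clustering and named only from marker genes, as X-like. The clustering left out the receptors and fixed lists of other chemokine receptors and of ligands, but not chemokines outside the lists, such as Ccl4. The 8 immune classes together held 1878 cells: neutrophil-like (312), Ly6c2+ monocyte-like (222), Pecam1+ monocyte-like (353), Apoe+ macrophage-like (315), B cell-like (244), T cell-like (267), plasmacytoid dendritic-like (118) and natural killer (NK) cell-like cells (47). Tumor-like cells, which express genes of the sympathetic lineage such as Dbh, numbered 3216, and 317 cells stayed in clusters without a name. No cluster could be named conventional dendritic. The 3 libraries shared few kept barcodes (3 between tumors 1 and 2, and 1 between tumors 2 and 3).

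Tumor 1 supplied most of the immune cells, so a sum over the cells of a class in tumor 2 or 3 often rested on few of them. Ly6c2+ monocyte-like cells numbered 199, 11 and 12 in tumors 1, 2 and 3, B cell-like cells 204, 15 and 25, and plasmacytoid dendritic-like cells 90, 4 and 24. A sum was used where it held at least 10 cells, which left 21 sums, with NK cell-like cells in tumor 1 alone and plasmacytoid dendritic-like cells in tumors 1 and 3. The T cell-like class of tumor 3 went against its name for most cells: 12 of its 70 cells (17.1%) had a UMI of at least 2 T cell markers, against 88.1% in tumor 1 and 54.3% in tumor 2. The shares were also low in the Ly6c2+ monocyte-like cells of tumor 3 (41.7%) and the B cell-like cells of tumor 3 (72%), and were 86.8% or more in the other sums. As CPM, a gene's UMIs scaled to 1 common total for every sum, the 10 tumor markers together reached 16.4 to 130 in the immune sums of tumor 1, but 563 to 1833 CPM in those of tumors 2 and 3, beside 2308 to 2496 CPM in tumor-like cells. For results that rest on these sums, values in marker-positive cells alone are therefore given as well, those with a UMI of at least 2 markers of their class, an alternative chosen after the data were seen.

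Of the 9 genes, 6 lie on chromosome 9 of the GRCm38 build, and Ccr9, Cxcr6, Ccr1 and Ccr2 stand within 435.1 kb of it (chr9:123678439-124113557), a cluster of receptor genes. Cxcr4 lies on chromosome 1 (128588199 to 128592293, minus strand), Ccr7 on chromosome 11 (99144196 to 99155077, minus strand) and Cxcr3 on chromosome X (101731535 to 101734269, minus strand). RefSeq windows of 250 bases before the gene start, in the GRCm38.p6 build, were at hand for 7 of the 9 genes, all but Ccr7 and Cxcr5. Those of Ccr1 (chr9:123968693-123968942, minus strand), Ccr9 (chr9:123766961-123767168, plus strand), Cxcr6 (chr9:123806227-123806474, plus strand) and Cxcr4 (chr1:128592300-128592549, minus strand) are shown, since Ccr1, Ccr9 and Cxcr6, neighbors on chromosome 9, were highest in 3 different immune classes and Cxcr4 was the most widespread of the 9. Bases that overlap an annotated exon were left out, which shortened the window of Ccr9 to 208 and that of Cxcr6 to 248 bases. The Ccr9 window precedes its RefSeq start and lies inside the longer gene span used above, which begins at 123678439. Capitals mark matches to any of 6 short motifs searched on both strands.
Ccr1: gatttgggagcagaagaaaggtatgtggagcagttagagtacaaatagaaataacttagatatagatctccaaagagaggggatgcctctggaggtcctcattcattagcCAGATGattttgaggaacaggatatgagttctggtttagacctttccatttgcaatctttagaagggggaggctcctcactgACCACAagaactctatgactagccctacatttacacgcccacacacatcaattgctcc
Ccr9: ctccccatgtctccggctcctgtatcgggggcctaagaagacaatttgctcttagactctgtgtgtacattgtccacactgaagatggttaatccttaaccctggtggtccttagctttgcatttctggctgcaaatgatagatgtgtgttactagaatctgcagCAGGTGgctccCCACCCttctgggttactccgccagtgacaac
Cxcr6: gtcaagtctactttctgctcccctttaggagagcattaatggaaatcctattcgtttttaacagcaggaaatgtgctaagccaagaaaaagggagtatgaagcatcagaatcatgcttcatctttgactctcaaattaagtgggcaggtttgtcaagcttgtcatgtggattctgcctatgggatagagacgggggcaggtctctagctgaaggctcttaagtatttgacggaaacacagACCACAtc
Cxcr4: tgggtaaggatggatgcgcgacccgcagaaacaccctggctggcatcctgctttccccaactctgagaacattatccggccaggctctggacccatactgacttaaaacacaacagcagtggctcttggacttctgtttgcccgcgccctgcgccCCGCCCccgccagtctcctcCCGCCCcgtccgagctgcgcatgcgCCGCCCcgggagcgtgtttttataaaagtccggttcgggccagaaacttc

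The motifs were an ETS core (AGGAAG, in 29.5% of 32851 RefSeq windows of the same length), a C/EBP motif (TTGCNNAA, 9.56%), an E-box (CAGNTG, 44.8%), a RUNX core (TGTGGT, 14.0%), a KLF motif (CCACCC, 28.1%) and a GC box (GGGCGG, 32.7%). The Ccr1 window held an E-box 140 bases and a RUNX core 58 bases before the start, and the Ccr9 window an E-box at 85 and a KLF motif at 74 bases. An ETS core 23 bases before the Ccr9 start lay in the part left out. The window of Cxcr6 held a RUNX core 10 bases before the start. That of Cxcr4, with UMIs in all 21 sums of immune classes used below, held 3 GC boxes at 95, 75 and 50 bases. Over the full 250 bases, before any were left out, it was the richest in G and C of the 4 (61.2%, against 43.6% in Ccr1, 50.4% in Ccr9 and 43.6% in Cxcr6). These matches describe the letters of the windows only.

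Transcripts of all 9 receptors lay mostly in immune cells. Between 91.0% (Cxcr6) and 98.2% (Ccr1) of a receptor's UMIs in kept cells came from the 8 immune classes, and between 80.6% (Cxcr6) and 96.7% (Ccr9) came from tumor 1. Cxcr4 had 3907 UMIs in all, Ccr2 2726, Cx3cr1 2518, Ccr1 1474, Ccr7 875 and Ccr9 644, while Cxcr3 (146), Cxcr5 (84) and Cxcr6 (67) were sparse. Neutrophil-like cells gave 64.8% of the UMIs of Ccr1, Ly6c2+ monocyte-like cells 54.0% of Ccr2, Pecam1+ monocyte-like cells 44.2% of Cx3cr1, B cell-like cells 48.6% of Ccr7 and 71.4% of Cxcr5, T cell-like cells 73.1% of Cxcr6, and plasmacytoid dendritic-like cells 84.8% of Ccr9. The UMIs of Cxcr4 were spread, with 22.8% in Pecam1+ monocyte-like and 18.6% in neutrophil-like cells.

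**Figure D1:**
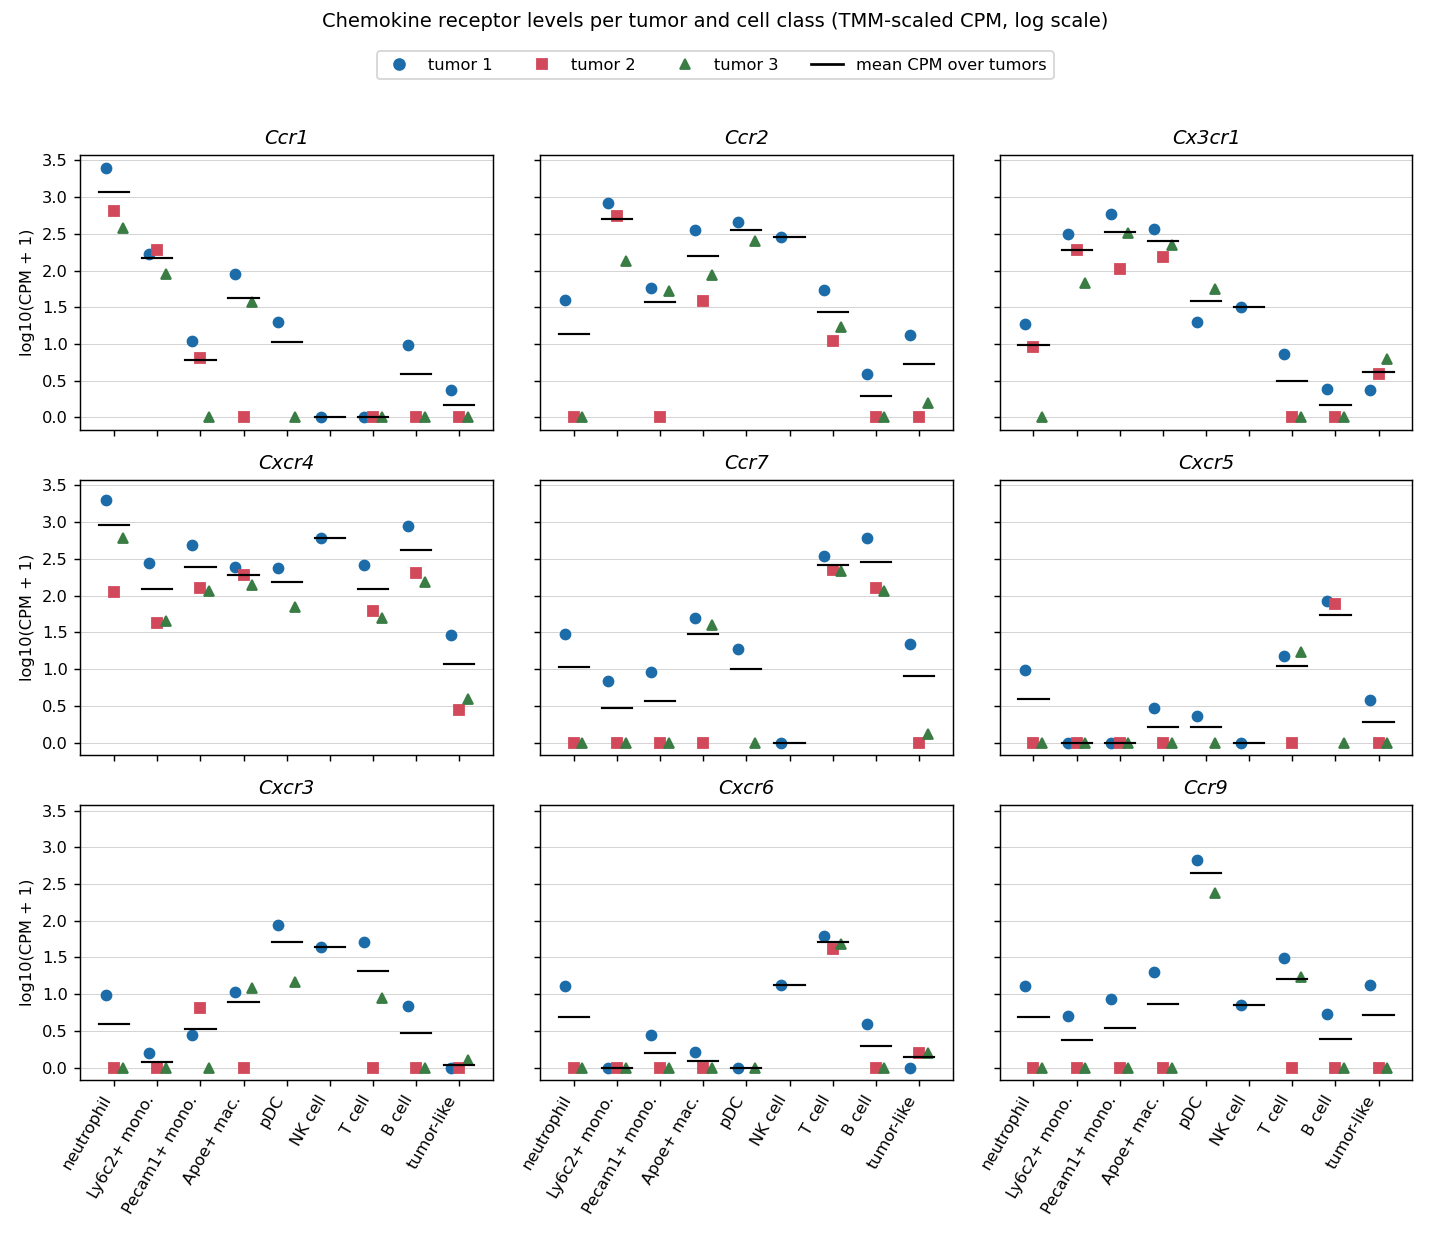
Level of each of the 9 receptors in the sums of 8 immune classes and of tumor-like cells, as the base-10 log of TMM-scaled CPM plus 1, with 1 point per tumor (circle, square and triangle for tumors 1, 2 and 3) and a bar at the mean over tumors. The TMM factors of immune and of tumor-like sums were computed separately. Ccr9 stands far above the other classes in plasmacytoid dendritic-like cells (669.5 and 234 CPM), and Cxcr4 is above 40 CPM in every immune sum, on only 2 UMIs each in the Ly6c2+ sums of tumors 2 and 3.

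Each class was compared with the mean of the other immune classes by edgeR's quasi-likelihood test with Benjamini-Hochberg adjustment over the 7069 genes tested, all 9 receptors among them. A call is an adjusted p under 0.05. At this threshold 16 of the 72 values (9 receptors in 8 classes) were called, and 27 had an unadjusted p under 0.05. The fitted change is a difference of log levels from the mean log level of the other 7 classes, so where a receptor had no UMI in some class (Ccr1, Ccr7, Cxcr5 and Cxcr6) its size depends on the prior count added by the fit, and the levels show the contrast more directly. Sums of different classes in 1 tumor share an animal and deviated together, and with each tumor as a block in the fit 23 of the 72 values were called. Levels are TMM-scaled CPM unless said otherwise. The TMM factors of the immune sums were computed among these alone, and those of the other classes among the sums of all named classes. Levels of immune and other classes are thus not on exactly the same scale. Without the block the p-values rest on the spread between tumors within classes, pooled over the classes. They treat the sums of 1 tumor as independent. With the block they rest on the spread left after a shift per tumor. All sums come from 3 animals.

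Ccr1, a receptor for inflammatory CC chemokines such as Ccl3 and Ccl6, was highest in neutrophil-like cells and next in Ly6c2+ monocyte-like cells. In neutrophil-like cells it reached 2516, 642 and 375 CPM (853, 80 and 22 UMIs) in tumors 1, 2 and 3, a mean of 1178 ± 1167 (SD, n = 3) that was 39.7 times the mean of the other classes. The level in Ly6c2+ monocyte-like cells was 168, 188 and 88.8 CPM (291, 9 and 4 UMIs), so all 3 neutrophil-like values lay above all of these. Apoe+ macrophage-like cells followed with 88.2, 0 and 36.0 CPM, below each Ly6c2+ value, and no UMI was found in T cell-like or NK cell-like cells of any sum. The TMM factor of the neutrophil-like sum of tumor 1 was low (0.480), and without it its level was 1207 CPM against 600.0 and 493 in tumors 2 and 3. The same factor raises the level of every gene in this sum, also those given below.

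In the test Ccr1 was higher in neutrophil-like cells by 7.55 on the log2 scale (SE 0.77, adjusted p = 1.1e-06 by edgeR's quasi-likelihood test) and in Ly6c2+ monocyte-like cells by 4.16 (SE 0.82, adjusted p = 0.0041). In marker-positive Ly6c2+ cells it gave 4.46 (adjusted p = 0.0048), at 180 and 211 CPM in tumors 1 and 2. The difference between both classes, Ly6c2+ minus neutrophil-like, was -2.97 (adjusted p = 0.0886) and was called with the tumor block (-2.88, adjusted p = 0.00039). In Apoe+ macrophage-like cells Ccr1 gave 2.20 (SE 0.87, adjusted p = 0.203), and it was called higher there with the block (2.63, adjusted p = 0.0031). After each cell was thinned to 500 UMIs, 38.8% of neutrophil-like cells still had a Ccr1 UMI (121 of 312, exact 95% interval 33.3 to 44.4), against 0.0311% of tumor-like cells, which should lack it. Since most immune cells came from tumor 1 and most tumor-like cells from tumor 3, the shares within tumor 1 are the closer comparison, 43.6% against 0.287% (1 of 349 tumor-like cells). Without thinning the share was 82.7% at a median of 2468 UMIs per cell, beside a median of 1645 in tumor-like cells. The intervals of shares cover counting error only.

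Ccr2, the receptor for Ccl2, was highest in Ly6c2+ monocyte-like cells, the classical monocyte subset. It reached 833, 544 and 133 CPM there (1439, 26 and 6 UMIs), a mean of 503 ± 352 (SD, n = 3). Plasmacytoid dendritic-like cells held 464 and 248 CPM (365 and 18 UMIs) in tumors 1 and 3, NK cell-like cells of tumor 1 286 CPM (47 UMIs) and Apoe+ macrophage-like cells 351, 38.0 and 85.9 CPM (541, 7 and 31 UMIs). These 4 classes overlapped in pairs of neighbors. Pecam1+ monocyte-like cells were lower, at 56.2, 0 and 51.2 CPM, each below every Ly6c2+ value. T cell-like cells had 53.7, 10.1 and 16.0 CPM, neutrophil-like cells 38.3 CPM in tumor 1 and no UMI in the others, and B cell-like cells 2 UMIs in all.

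Ccr2 was called higher in Ly6c2+ monocyte-like cells, by 3.29 on the log2 scale (SE 0.63, adjusted p = 0.0026 by edgeR's quasi-likelihood test), and in plasmacytoid dendritic-like cells, by 2.72 (SE 0.71, adjusted p = 0.0308). The second call was lost on leaving out tumor 1 (adjusted p = 0.0648), tumor 2 (0.0569) or tumor 3 (0.151) and by DESeq2 (0.227). In B cell-like cells the value was -5.35 (adjusted p = 0.0515), and it was called lower with the block (-5.80, adjusted p = 8.4e-05) and in marker-positive cells (-5.44, adjusted p = 0.0405), where 0.671% of genes were lower. In marker-positive Ly6c2+ cells, which left tumors 1 and 2, the level was 887 and 587 CPM and the call was kept (3.83, adjusted p = 0.00096, with 3.76% of genes higher). The block further called Ccr2 higher in Apoe+ macrophage-like cells (1.54, adjusted p = 0.0050) and lower in neutrophil-like cells (-2.06, adjusted p = 0.0236). Of the 83 Apoe+ macrophage-like cells with Ccr2, 25 (30.1%) had UMIs of at least 3 conventional dendritic markers and 61 (73.5%) of at least 2 Apoe+ macrophage markers, against 10 (4.31%) and 227 (97.8%) of the 232 without, at medians of 13470 and 1694 UMIs, and the part of such cells or of depth in this call was not tested. After thinning, 25.7% of Ly6c2+ monocyte-like cells (exact 95% interval 20.1 to 31.9) and 17.8% of plasmacytoid dendritic-like cells (11.4 to 25.9) had a Ccr2 UMI, against 0.218% of tumor-like cells. Within tumor 1 the shares were 26.6% and 21.1%, and that of tumor-like cells was higher there, at 1.72% (6 of 349). The unthinned shares were 78.4% and 73.7% at median depths of 10440 and 9691 UMIs.

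Cx3cr1, the receptor for the membrane-bound chemokine Cx3cl1, set the 3 monocyte and macrophage subsets apart from the other immune classes. Pecam1+ monocyte-like cells, the nonclassical subset, held 582, 103 and 322 CPM (1005, 19 and 88 UMIs), Apoe+ macrophage-like cells 368.5, 152 and 225 CPM (568, 28 and 81 UMIs) and Ly6c2+ monocyte-like cells 310, 188 and 66.6 CPM (535, 9 and 3 UMIs). The ranges of the 3 subsets overlapped, and all their values lay above those of the next class, plasmacytoid dendritic-like cells (19.1 and 55.1 CPM). NK cell-like cells had 30.4 CPM, neutrophil-like cells 17.7, 8.03 and 0, T cell-like cells 4 UMIs in all and B cell-like cells 1 UMI. Outside the immune classes, the mesothelial-like cells of tumor 1 held 127 CPM (57 UMIs).

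Cx3cr1 was called higher in Pecam1+ monocyte-like cells, by 3.86 on the log2 scale (SE 0.47, adjusted p = 2.5e-05 by edgeR's quasi-likelihood test), in Apoe+ macrophage-like cells, by 3.36 (SE 0.47, adjusted p = 5.3e-05), and in Ly6c2+ monocyte-like cells, by 2.99 (SE 0.50, adjusted p = 0.00090). The last of these gave an adjusted p of 0.0734 without tumor 1 and 3.16 (adjusted p = 0.0012) in marker-positive cells, at 323 and 70.4 CPM in tumors 1 and 2. It was called lower in T cell-like (-3.32, adjusted p = 0.0488) and B cell-like cells (-5.04, adjusted p = 0.0212). Both lower calls were lost on leaving out any 1 of the tumors (adjusted p = 1 without tumor 1, 0.228 without tumor 2 and 0.238 without tumor 3 in T cell-like cells, and 1.0, 0.0906 and 0.101 in B cell-like cells). In marker-positive cells the T cell-like value was not called (adjusted p = 0.17). After thinning, 20.1% of Pecam1+ monocyte-like cells had a Cx3cr1 UMI (exact 95% interval 16.1 to 24.7) against 0.218% of tumor-like cells, and the unthinned share was 77.9%.

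The monocyte and macrophage subsets were also compared in pairs, as were Ly6c2+ monocyte-like and neutrophil-like cells, and the call on these 36 values depended on how the tumors entered the fit. Without a tumor term 2 values were called by edgeR's quasi-likelihood test, both between Ly6c2+ and neutrophil-like cells: Cx3cr1 (4.06, SE 0.84, adjusted p = 0.0104) and Ccr2 (4.75, SE 1.12, adjusted p = 0.0202) were higher in the Ly6c2+ cells, where 1.4% of all genes tested were higher. Among the 3 subsets no value was called, with 2, 2 and 3 values at an unadjusted p under 0.05 in the 3 pairs, and DESeq2 called none there either, while 0.226%, 0.566% and 0.707% of all genes were called. With the tumor block, 13 of the 36 values were called. Between Ly6c2+ and neutrophil-like cells these also held Cxcr4 (-2.71, adjusted p = 0.00035), lower in Ly6c2+ cells, with 5.23% of all genes higher and 11% lower. Cxcr6 was among them as well, but on 4 UMIs in 2 neutrophil-like cells of tumor 1 against none in Ly6c2+ cells, so its fitted size is not given. Without 1 of the tumors the 2 calls were not kept together: Cx3cr1 gave adjusted p = 0.0677, 0.155 and 0.0794 without tumors 1, 2 and 3, and Ccr2 0.1475 and 0.12 without tumors 2 and 3.

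Between both monocyte subsets the largest differences were in Ccr1 and Ccr2, higher in Ly6c2+ than in Pecam1+ cells. Ccr1 differed by 4.48 (SE 1.08, adjusted p = 0.1315 by edgeR's quasi-likelihood test, and 4.77, adjusted p = 0.00018, with the block) and Ccr2 by 3.73 (SE 0.99, adjusted p = 0.226, and 3.86, adjusted p = 0.00016, with the block). In tumor 3 the Ly6c2+ side was 4 UMIs of Ccr1 and 6 of Ccr2 in 12 cells, of which 5 were marker-positive. With the block 0.707% of all genes were called higher in this pair. Against Apoe+ macrophage-like cells and with the block, Ly6c2+ cells had more Ccr2 (1.93, adjusted p = 0.0198, background 1.6% higher) and less Ccr7 (-3.26, adjusted p = 0.0091) and Cxcr3 (-4.04, adjusted p = 0.0451, background 2.86% lower). The Ly6c2+ side of both lower values was 10 UMIs of Ccr7 and 1 of Cxcr3, all in tumor 1. With the block among marker-positive cells, 2 of the 9 values were called in this pair, against these 3 in all cells. Pecam1+ cells then had less Ccr1 (-3.08, adjusted p = 0.0036), Ccr2 (-1.93, adjusted p = 0.0238) and Ccr7 (-2.95, adjusted p = 0.0043) than Apoe+ cells, where 3.42% of genes were lower. Cx3cr1 was called in none of the 3 pairs with either fit.

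Cells within a subset also differed. Apoe+ macrophage-like cells fell into a deep subcluster (108, 17 and 47 cells in tumors 1, 2 and 3, medians of 14960, 6195 and 5874 UMIs) and a shallow one (43, 34 and 66 cells, medians of 794, 1304 and 1391 UMIs). On the scale of plain CPM, Ccr2 was 308, 47.7 and 108 in the deep and 14.2, 0 and 10.3 in the shallow cells, Cx3cr1 317, 184 and 280.0 against 185, 20.5 and 30.9, and Ccr1 77.6, 0 and 46.7 against no UMI. Depth and receptor level thus moved together between them, and the part of depth in the difference was not tested. In the Pecam1+ subset, 43 cells led by Lipg had 462, 37.4 and 137 plain CPM of Cx3cr1, against 499, 193 and 434 in the other cells, and 132, 0 and 22.9 of Cxcr4 against 434, 277 and 165.5. By the naming rule the cells led by Lipg met only 4 of the 10 nonclassical markers, against 10 in the other cells, so the name of the subset holds less well for them.

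**Figure D2:**
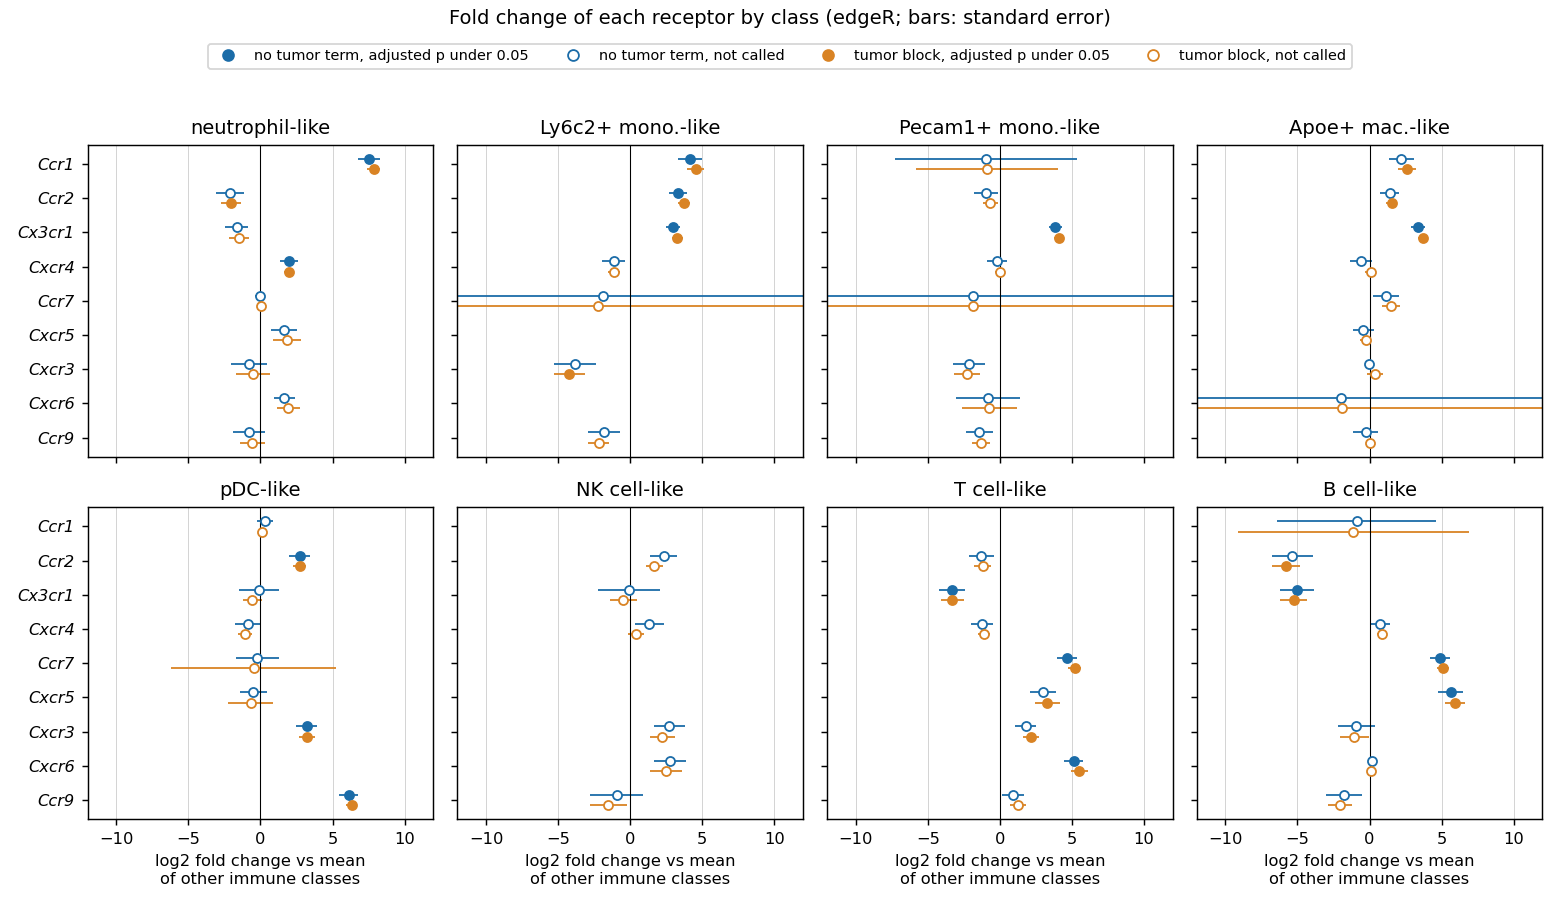
Fitted log2 fold change of each receptor in each immune class against the mean of the other immune classes, from edgeR without (blue) and with (orange) each tumor as a block, with bars of 1 standard error and filled points where the adjusted p was under 0.05. Receptors with no UMI in a class are left out, and bars that run past the plotted range are clipped. Ccr1 in neutrophil-like cells (7.55), Ccr9 in plasmacytoid dendritic-like cells (6.12) and Cxcr5 in B cell-like cells (5.63) lie farthest to the right without the block.

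Read by class, the counts of receptors called in the fit without the block stood beside these backgrounds. In Ly6c2+ monocyte-like cells 3 of 9 were higher (Ccr1, Ccr2 and Cx3cr1), with 4.12% of all genes called higher, in Pecam1+ monocyte-like cells 1 (Cx3cr1, background 5.21%) and in Apoe+ macrophage-like cells 1 (Cx3cr1, 5.79%). Neutrophil-like cells had 2 higher (Ccr1 and Cxcr4), where 11.5% of genes were higher. T cell-like cells had 2 higher (Ccr7 and Cxcr6, background 1.68%) and 1 lower (Cx3cr1, background 1%), B cell-like cells 2 higher (Ccr7 and Cxcr5, 1.8%) and 1 lower (Cx3cr1, 0.594%), and plasmacytoid dendritic-like cells 3 higher (Ccr9, Cxcr3 and Ccr2, 3.49%). In NK cell-like cells none was called by edgeR or DESeq2, with 3 at an unadjusted p under 0.05 by edgeR and 0 by DESeq2, where 1.77% of genes were called in either direction. That class has 1 sum, which is assumed to vary like the others. The median log2 change of the 9 receptors ran from -1.81 (Ly6c2+ monocyte-like, -0.05 over all genes) to 0.92 (T cell-like, 0.08 over all genes).

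With the tumor block the 23 calls stood beside higher backgrounds. They were 3 higher (8.3% of all genes called higher) and 1 lower (2.35%) in Ly6c2+ monocyte-like cells, 1 higher (13.3%) in Pecam1+ monocyte-like cells, 3 higher (11.5%) in Apoe+ macrophage-like cells and 2 higher (19.5%) and 1 lower (5.11%) in neutrophil-like cells. T cell-like cells had 4 higher (5.28%) and 1 lower (4.29%), B cell-like cells 2 higher (4.63%) and 2 lower (4.53%) and plasmacytoid dendritic-like cells 3 higher (7.23%). NK cell-like cells again had none by edgeR's quasi-likelihood test, with 4 at an unadjusted p under 0.05, where 4.63% of genes were called in either direction.

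Cxcr4, the receptor for Cxcl12, was the most widespread, with UMIs in all 21 immune sums. In the Ly6c2+ sums of tumors 2 and 3 these were 2 UMIs in 1 cell each (41.8 and 44.4 CPM), where 3 UMIs would be 62.7 and 66.6 CPM. The means were in the order neutrophil-like (908 ± 976, SD, n = 3), NK cell-like (608.5, n = 1), B cell-like (415 ± 414, n = 3), Pecam1+ monocyte-like (241 ± 212), Apoe+ macrophage-like (192 ± 53.6), plasmacytoid dendritic-like (154 ± 121, n = 2), T cell-like (123 ± 119) and Ly6c2+ monocyte-like cells (120.4 ± 134), and each class overlapped its neighbor in this order. Neutrophil-like cells held 1997, 112 and 613 CPM (677, 14 and 36 UMIs) and B cell-like cells 892, 203 and 151 CPM (607, 8 and 8 UMIs). As plain CPM, without the TMM factors, the neutrophil-like levels were 958, 105 and 806. Tumor 1 was the highest tumor in each class with more than 1 sum. Endothelial-like cells had 76.1, 69.9 and 39.6 CPM and tumor-like cells 27.7, 1.76 and 2.87.

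Cxcr4 was called higher in neutrophil-like cells, by 1.96 on the log2 scale (SE 0.63, adjusted p = 0.042 by edgeR's quasi-likelihood test). The call was lost without tumor 2 (adjusted p = 0.0826) or tumor 3 (0.18), in marker-positive cells (0.0527), without the shallow Apoe+ subcluster (0.0544) and under 3 other settings, and held with the block (6.6e-06). After thinning, 29.8% of neutrophil-like cells had a Cxcr4 UMI (exact 95% interval 24.8 to 35.2), but the tumors differed, with 36.4%, 0% and 31.8%. In B cell-like cells the thinned share was 23.8% (18.6 to 29.6), in NK cell-like cells 29.8% (17.3 to 44.9), in Pecam1+ monocyte-like cells 13.6% (10.2 to 17.6) and in T cell-like cells 7.87% (4.93 to 11.8), all above the 0.466% of tumor-like cells. Within tumor 1 the share of tumor-like cells was 3.44% (12 of 349, 1.79 to 5.93), beside 36.4% in neutrophil-like, 26.0% in B cell-like and 11.9% in T cell-like cells. The unthinned share was 61.5% in neutrophil-like and 78.3% in B cell-like cells.

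Ccr7, which follows Ccl19 and Ccl21 to lymph nodes, was found mainly in B cell-like and T cell-like classes. B cell-like cells held 608, 127 and 113 CPM (414, 5 and 6 UMIs) and T cell-like cells 347, 222 and 215 CPM (220, 22 and 27 UMIs), with overlapping ranges. Apoe+ macrophage-like cells came next with 48.0, 0 and 38.8 CPM, below every B and T cell-like value. Which of both lymphocyte classes came first was not stable, since T cell-like cells led on plain CPM and without tumor 1. In marker-positive T cell-like cells Ccr7 was 337, 178 and 89.8 CPM (215, 10 and 3 UMIs), so that most of the 27 UMIs of tumor 3 came from cells with fewer than 2 T cell markers.

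Ccr7 was called higher in B cell-like cells, by 4.87 on the log2 scale (SE 0.69, adjusted p = 0.00016 by edgeR's quasi-likelihood test), and in T cell-like cells, by 4.64 (SE 0.69, adjusted p = 0.00032), and by 4.88 (adjusted p = 0.00019) and 4.32 (adjusted p = 0.0010) among marker-positive cells, where 1.74% and 1.86% of genes were higher. After thinning, 13.9% of B cell-like cells (exact 95% interval 9.85 to 18.9) and 10.1% of T cell-like cells (6.77 to 14.4) had a Ccr7 UMI against 0.249% of tumor-like cells. Within tumor 1 these shares were 14.7%, 10.6% and 2.29% (8 of 349 tumor-like cells). The unthinned shares were 57.0% and 33.0% at median depths of 4058 and 1669 UMIs. Ccr7 in the Apoe+ class came from 14 of 315 cells (88 UMIs), 11 of them in tumor 1. Of these 14 cells, 5 (35.7%) had UMIs of at least 3 conventional dendritic markers, as did 30 of the 301 cells without Ccr7 (9.97%), at medians of 15550 and 3536 UMIs. The summed level of the 10 conventional dendritic markers was 317 to 493 CPM in the Apoe+ class, and the part of such cells or of depth in the Ccr7 signal was not tested.

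Cxcr5, the B cell follicle receptor for Cxcl13, was found mainly in B cell-like cells, at 83.7, 76.2 and 0 CPM (57, 3 and 0 UMIs). T cell-like cells held 14.2, 0 and 16.0 CPM (9, 0 and 2 UMIs), and no UMI was found in both monocyte subsets or in NK cell-like cells. A count of 0 in the B cell-like sum of tumor 3 allows up to 56.5 CPM (3 UMIs). Cxcr5 was called higher in B cell-like cells (5.63, SE 0.87, adjusted p = 0.0010 by edgeR's quasi-likelihood test), but not by DESeq2 (adjusted p = 0.135), and in T cell-like cells with the block (3.31, adjusted p = 0.0107). In marker-positive T cell-like cells the mean of Cxcr5 was 24.7 against 10.1 CPM, through the same 2 UMIs in the 12 cells of tumor 3, without a call (3.69, adjusted p = 0.0752). After thinning 0.82% of B cell-like cells had a Cxcr5 UMI (exact 95% interval 0.0994 to 2.93), against 0 of 3216 tumor-like cells, which allows a share of up to 0.0933%, and the unthinned share was 18.0%.

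Cxcr6, the receptor for Cxcl16, was low but nearly limited to T cell-like cells, with 61.6, 40.3 and 47.9 CPM (39, 4 and 6 UMIs), a mean of 49.9 ± 10.8 (SD, n = 3) that was 19.5 times the mean of the other classes. NK cell-like cells had 2 UMIs (12.2 CPM) and neutrophil-like cells 4 UMIs in tumor 1, and none was found in Ly6c2+ monocyte-like or plasmacytoid dendritic-like cells. Cxcr6 was called higher in T cell-like cells (5.11, SE 0.69, adjusted p = 0.00025 by edgeR's quasi-likelihood test). In marker-positive T cell-like cells the level was 59.6, 71.2 and 119.7 CPM (38, 4 and 4 UMIs), so that 4 of the 6 UMIs of tumor 3 came from the 12 cells with T cell markers. After thinning the share was 2.62% (exact 95% interval 1.06 to 5.33) against 0.0311% of tumor-like cells.

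Cxcr3, the receptor for the interferon-induced chemokines Cxcl9 and Cxcl10, was highest in plasmacytoid dendritic-like cells (87.7 and 13.8 CPM, 69 and 1 UMIs, in tumors 1 and 3). NK cell-like cells of tumor 1 held 42.6 CPM (7 UMIs) and T cell-like cells 50.5, 0 and 7.98 CPM (32, 0 and 1 UMIs), and these 3 classes overlapped. Outside tumor 1, Cxcr3 thus rested on single UMIs in all classes but Apoe+ macrophage-like cells (4 UMIs in tumor 3). Cxcr3 was called higher in plasmacytoid dendritic-like cells (3.20, SE 0.74, adjusted p = 0.0128 by edgeR's quasi-likelihood test) but not by DESeq2 (adjusted p = 0.466). Among marker-positive T cell-like cells it had 50.2, 0 and 0 CPM (1.94, adjusted p = 0.278). With the block it was also higher in T cell-like (2.19, adjusted p = 0.0077) and lower in Ly6c2+ monocyte-like cells (-4.21, adjusted p = 0.0073). The Ly6c2+ value rests on 1 UMI in tumor 1 and none in tumors 2 and 3, where 3 UMIs would be 62.7 and 66.6 CPM. The thinned share was 2.54% in plasmacytoid dendritic-like (exact 95% interval 0.527 to 7.25) and 1.12% in T cell-like cells (0.232 to 3.25).

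Ccr9, the receptor for Ccl25, had the largest ratio among the 9 receptors between its highest and its next class. Plasmacytoid dendritic-like cells held 669.5 and 234 CPM (527 and 17 UMIs) in tumors 1 and 3, a mean of 452 ± 308 (SD, n = 2), and the next class, T cell-like cells, 30.0, 0 and 16.0 CPM (19, 0 and 2 UMIs), with no overlap and a ratio of the means of 29.5. The other classes held at most 18.8 CPM in any tumor. In the test Ccr9 was higher by 6.12 on the log2 scale (SE 0.64, adjusted p = 4.2e-06 by edgeR's quasi-likelihood test). After thinning, 23.7% of plasmacytoid dendritic-like cells had a Ccr9 UMI (exact 95% interval 16.4 to 32.4), at 25.6% in tumor 1 and 16.7% in tumor 3, against 0.0933% of tumor-like cells (0.86%, 3 of 349, in tumor 1), and the unthinned share was 81.4%. The 4 cells of this class in tumor 2, too few for a sum, entered the pooled share but no sum.

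**Figure D3:**
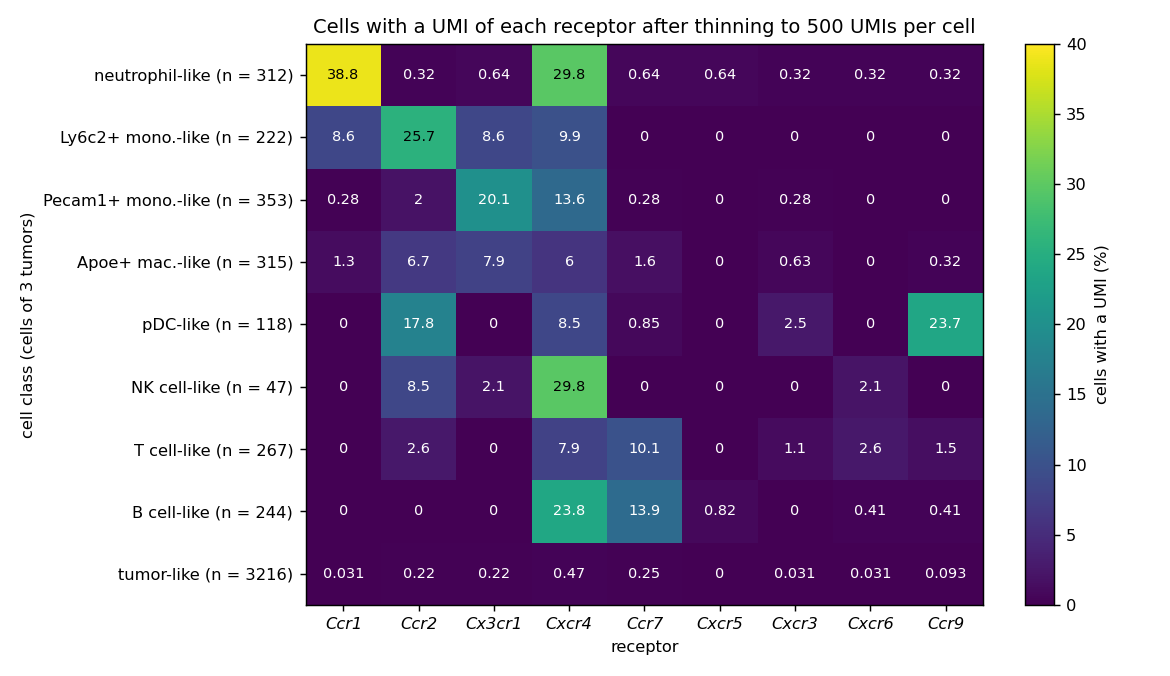
Percent of cells with at least 1 UMI of each receptor after every cell was thinned to 500 UMIs, for 8 immune classes and tumor-like cells over the 3 tumors, as color and printed value. The brightest fields are Ccr1 in neutrophil-like cells (38.8%) and Cxcr4 in neutrophil-like and NK cell-like cells (29.8% in both), and the bottom line, tumor-like cells pooled over tumors, stays at or below 0.466% for all 9 receptors, while it reaches 3.44% (Cxcr4) in tumor 1 alone.

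Several receptors were often found in the same cell. Of 312 neutrophil-like cells, 164 had UMIs of both Ccr1 and Cxcr4 (146 of them in tumor 1), 94 of Ccr1 alone, 28 of Cxcr4 alone and 26 of neither. Among 222 Ly6c2+ monocyte-like cells, Ccr2 and Cx3cr1 were found together in 113 and alone in 61 and 30. In the 353 Pecam1+ monocyte-like cells Cx3cr1 was found with Ccr2 in 38 and with Cxcr4 in 198. Plasmacytoid dendritic-like cells had Ccr9 with Ccr2 in 77 of 118 cells and Ccr9 with Cxcr3 in 37. B cell-like cells had Ccr7 with Cxcr4 in 122 of 244 cells and with Cxcr5 in 31.

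Of 267 T cell-like cells, 88 had Ccr7 and 19 Cxcr6, and 2 had both, 6 had Ccr7 with Cxcr3, and 4 had Cxcr3 with Cxcr6. Cd4 was found in 36 of the 88 cells with Ccr7, in 8 of the 19 with Cxcr6 and in 9 of the 19 with Cxcr3, and Cd8a in 11, 2 and 5, where 81 and 25 of all T cell-like cells had a UMI of Cd4 and Cd8a. Foxp3, of regulatory T cells, was found in 8, 3 and 4 of them and in 22 of all. Cd4, Cd8a and Foxp3 were chosen after values were seen. A cell without a UMI may still express the gene, and these counts were not thinned.

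**Figure D4:**
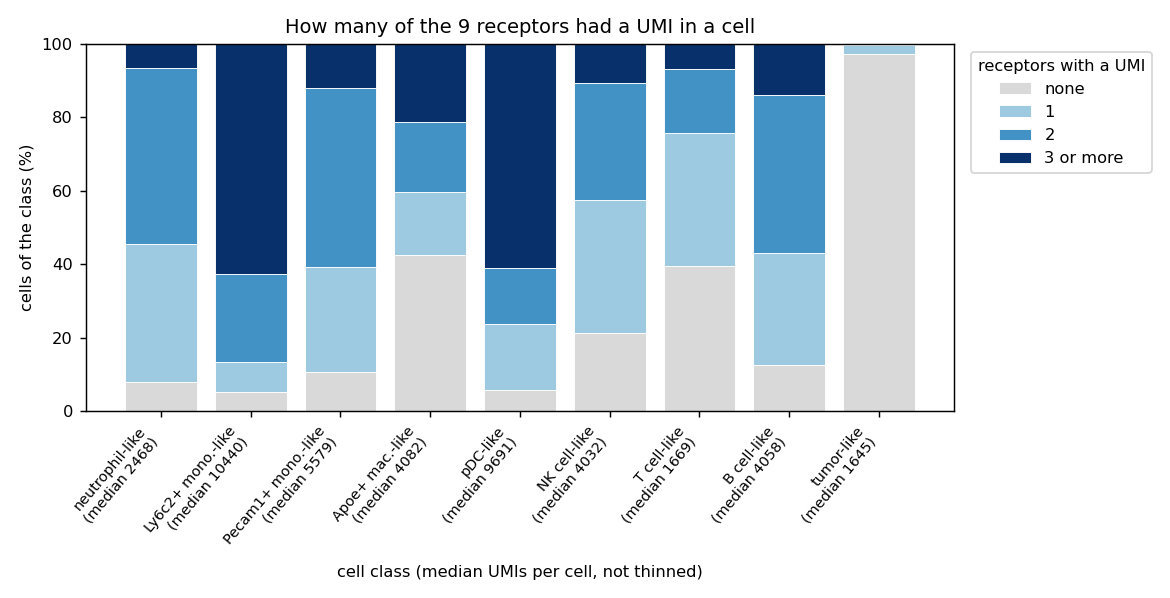
Percent of cells with UMIs of none, 1, 2 or 3 or more of the 9 receptors in each class, with the median UMIs per cell under each bar and no thinning. At least 1 receptor had a UMI in 94.6% of Ly6c2+ monocyte-like, 94.1% of plasmacytoid dendritic-like and 92.0% of neutrophil-like cells, and in 2.61% of tumor-like cells.

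Of 222 Ly6c2+ monocyte-like cells 139 had UMIs of 3 or more of the 9 receptors, and of 118 plasmacytoid dendritic-like cells 72. These are the deepest immune classes. As plain CPM, neutrophil-like cells held the highest receptor total (1951), before plasmacytoid dendritic-like (1274), Ly6c2+ monocyte-like (1273) and B cell-like cells (1090). The total was 609 in the T cell-like class, against 16.4 in tumor-like cells. These totals are pooled over tumors, and the order did not hold in each. Neutrophil-like cells held 2225, 712.5 and 1299 in tumors 1, 2 and 3, and in tumor 2 they lay below plasmacytoid dendritic-like (1191, 4 cells), Ly6c2+ monocyte-like (1127, 11 cells) and NK cell-like cells (933, 7 cells).

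The other genes of the pathway were taken from lists of other chemokine receptors, ligands of the 9 receptors, and signaling and desensitization genes. Of 14 other receptors 4 passed the filter on low counts. Neutrophil-like cells had Cxcr2, the neutrophil receptor for ELR+ CXC chemokines, at 2988, 851 and 426 CPM and Ccrl2 at 2856, 434 and 834.5 CPM, both called higher (9.58 and 5.30 on the log2 scale, where 11.5% of all genes were higher), and 1 of the 4 was called lower (background 1.53%). Ccrl2 was also higher in Ly6c2+ (2.25) and Pecam1+ monocyte-like cells (2.29), and Ccr6, a receptor of B cells and some T cells, in B cell-like cells (4.94), with backgrounds of 4.12%, 5.21% and 1.8%. The 4 showed no call in the Apoe+ macrophage-like, T cell-like, NK cell-like and plasmacytoid dendritic-like classes. Their median change was 2.40 in neutrophil-like cells, 0.10 in Ly6c2+ and -0.38 in Pecam1+ monocyte-like cells, where over all genes it was 0.09, -0.05 and 0.10. Ackr3, the decoy receptor for Cxcl12, was highest in cells like cancer-associated fibroblasts (CAF-like, 180.4 and 6.96 CPM in tumors 1 and 3).

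Among the ligands, 11 of 19 listed genes were tested, and the monocyte and macrophage classes held most calls. In Ly6c2+ monocyte-like cells 4 rose (Ccl2 by 5.07, Ccl9 by 4.88, Ccl6 by 4.01 and Cxcl16 by 2.92, with 4.12% of all genes higher), in Pecam1+ monocyte-like cells 5 (Cxcl13, Ccl9, Ccl6, Ccl3 and Cxcl16, background 5.21%) and in Apoe+ macrophage-like cells 5 (Ccl8 by 7.97, Cxcl16 by 5.90, Ccl12 by 5.53, Ccl9 and Ccl6, background 5.79%). The median change of the 11 was 2.01, 0.46 and 2.07 in these 3 classes, against -0.05, 0.10 and 0.10 over all genes. Cxcl16, the ligand of Cxcr6, stood at 455, 391 and 427 CPM in Apoe+ macrophage-like cells. Neutrophil-like cells had 2 higher (Ccl6 and Ccl3, median -1.30, background 11.5%), NK cell-like cells 1 (Ccl5 by 8.70, 16223 CPM, with 1.73% of genes higher), and B cell-like cells 2 lower (Ccl6 and Ccl3, median -2.11, background 0.594%). None was called in T cell-like or plasmacytoid dendritic-like cells. Cxcl13, the ligand of Cxcr5, was found in the Pecam1+ class of tumors 2 and 3 (129.6 and 168 CPM) and not in tumor 1. All these UMIs (24 and 46) lay in 6 and 2 cells of the subcluster led by Lipg, for which Cxcl13 is itself a leading gene, and 1 Ly6c2+ cell of tumor 3 held 11 more.

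In the pairs, Ccl8 was lower in Ly6c2+ (-8.48) and in Pecam1+ (-7.17) than in Apoe+ cells, where it reached 52.6, 86.9 and 164 CPM, with 0.495% and 0.552% of all genes lower in these pairs. Ccl2, the ligand of Ccr2, was highest in mesothelial-like cells of tumor 1 (595 CPM), then in CAF-like cells (513 and 118 CPM in tumors 1 and 3), and reached 91.5, 376 and 88.8 CPM in Ly6c2+ monocyte-like cells. Cxcl12, the ligand of Cxcr4, was found in CAF-like cells (232.5 and 20.9 CPM) and endothelial-like cells (171, 69.9 and 92.3 CPM), a gene named after its values were seen. Mif, another ligand of Cxcr4, was highest in tumor-like cells (1287, 1630 and 2067 CPM).

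All 15 signaling and desensitization genes in the files were tested. Neutrophil-like cells had 3 higher, Rgs18 by 4.21 and Arrb2, a beta-arrestin that takes activated receptors off the surface, by 2.18, and Gnai3, an inhibitory G protein subunit, by 1.65, beside 11.5% of all genes. Plasmacytoid dendritic-like cells had 1 (Rgs18 by 4.24, background 3.49%), Apoe+ macrophage-like cells 1 (Rgs1 by 1.93, at 773, 918 and 507 CPM, background 5.79%) and Pecam1+ monocyte-like cells 1 (Arrb1 by 1.84, background 5.21%), and the other 4 classes none. A single call among 15 genes is near the background of the latter classes. Rgs1 and Rgs18 speed up the shutdown of G protein signals. Gnai2, the main inhibitory G protein subunit of leukocytes, stood at 2363, 690.5 and 392 CPM in neutrophil-like cells without a call. The median change of the 15 was 0.65 in neutrophil-like, 0.63 in Pecam1+ monocyte-like and -0.74 in B cell-like cells, against 0.09, 0.10 and -0.01 over all genes.

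For each receptor the genes with the most similar pattern were sought over the 21 immune sums among 9010 genes, by Pearson's r of log2(CPM + 1), as a description without a p, since sums of 1 tumor share a library and its depth. Ccr1 was closest to Cd177 (0.893), Clec4d (0.881) and Lcn2 (0.878), Ccr2 to Sfxn3 (0.911), Ahnak (0.832) and Ptger4 (0.81), and Cx3cr1 to Ptpro (0.921), Pid1 (0.92) and Hebp1 (0.915). Ccr7 was closest to S1pr1 (0.899), H2-Ob (0.867) and Gm8369 (0.826), Cxcr5 to Pou2af1 (0.899), Iglc1 (0.806) and Bcar3 (0.792), and Cxcr6 to Icos (0.955) and Themis (0.954). Ccr9 followed Sh3bgr (0.889), Tbxa2r (0.87) and Siglech (0.864), Cxcr3 Fam234b (0.855), Mcoln2 (0.835) and Hist2h4 (0.813), and Cxcr4 Kmt2e (0.859), Wipf1 (0.859) and Dnm2 (0.857). Clec4d and Siglech were among the markers that named the classes.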

How the data were processed

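Single-cell RNA of 3 tumors was read from the tables of raw UMI counts that the authors deposited, which hold whole numbers per gene and barcode. The authors' normalized tables hold values on a natural log scale, ln(1 + corrected count), and name the barcodes and genes they kept after filters, doublet removal and ambient RNA removal. How that correction was made is not given in the sources used here. The submitters' processing notes name Cell Ranger 3.1.0, Seurat 3.1.5 and the build mm10. Normalized tables were used only for the list of kept barcodes and for 1 alternative. They lack Ccr9, Cxcr3, Cxcr5 and Cxcr6 for tumor 2 and Cxcr5 and Cxcr6 for tumor 3, so this alternative used only genes in all 3 tables. No doublet caller was run again.

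Kept cells (58.8%, 28.2% and 41.7% of the deposited barcodes) were clustered in Seurat 5.3.0 (R 4.3.3) with the tumors integrated (canonical correlation) over 2000 variable genes, and with 41 receptor, ligand and related genes held out, 30 dimensions, 20 neighbors and a resolution of 1 (0.5 for the monocyte and macrophage cells). A cluster was named where at least 3 markers of a type were 2-fold higher and found in 10% of its cells. It stayed without a name where its leading genes held more markers of another type. The same held for a shallow cluster whose leading genes held no marker of its own type. Counts were summed per tumor and class (at least 10 cells) and tested with edgeR 4.0.16 (TMM, filterByExpr, quasi-likelihood, Benjamini-Hochberg over all genes of a contrast, threshold 0.05). The exact test over 3 tumors cannot reach that threshold and was not used. The procedure was tested on simulated data, where for the Ly6c2+ monocyte-like contrast with 7069 genes, 33.3% of changes of 2 and 83.5% of changes of 4 on the log2 scale were recovered.

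Sums of different classes in 1 tumor share an animal. Their deviations from the class means correlated between 0.0983 and 0.69 within a tumor (median 0.28, 45 pairs). Across tumors the range was -0.484 to 0.25 (median -0.28, 90 pairs). The deviations of a class sum to 0 over its tumors, so the values across tumors follow from those within and are not separate evidence. The part of depth in these correlations was not tested. The pairing by tumor was taken as given, and the fit with a tumor block is printed where it changed a call. Shares of cells were computed after thinning each cell to 500 UMIs, with exact 95% binomial intervals. A count of 0 was read as allowing up to 3 UMIs. Alternatives were DESeq2 1.42.0, no filter, resolutions of 0.6 and 2, no integration, the corrected counts, sums of at least 20 cells, all named classes in the fit, and leaving out each tumor. Added after seeing the data were marker-positive cells (at least 2 markers), with and without the block, and the omission of a subcluster of Pecam1+ and of Apoe+ cells.

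The genes named were the 9 receptors, and from each of 3 lists up to 4 genes with the highest mean level in a class, and up to 4 more called genes with the largest change and at least 50 CPM. The 3 genes most like each receptor were taken among those with at least 20 CPM in a class. Ccr6, Ccl12, Cxcl12, Cd4, Cd8a and Foxp3 fall outside this rule. Some genes that the rule names are not reported here. The receptors and lists were chosen with earlier results of these data known. Windows before gene starts are from RefSeq (GRCm38.p6). Gene positions are from GENCODE M21, matched by symbol.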

Additional observations from a re-analysis of the deposited data

Results flagged for a closer look

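The comparisons above used neither the barcodes that the authors removed nor the kept cells in clusters without a name, and both held UMIs of the receptors. In the removed barcodes of the 3 tumors there were 61 UMIs of Ccr1, 179 of Ccr2, 306 of Ccr7, 122 of Ccr9, 297 of Cx3cr1, 28 of Cxcr3, 562 of Cxcr4, 15 of Cxcr5 and 53 of Cxcr6. As a share of all UMIs of a receptor these came to between 3.97% (Ccr1) and 44.2% (Cxcr6), with 25.9% for Ccr7. Each count is above the 3 UMIs that a count of 0 allows. Removed barcodes were given no class.

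The 317 cells without a named class held 17 UMIs of Ccr1, 20 of Ccr2, 22 of Ccr7, 4 of Ccr9, 36 of Cx3cr1 and 111 of Cxcr4, while Cxcr3, Cxcr5 and Cxcr6 had no more than 3. Most came from 129 shallow cells led by the neutrophil gene Retnlg (median of 952 UMIs per cell), with 92 UMIs of Cxcr4 in 43 cells, 33 of Cx3cr1, 21 of Ccr7, 19 of Ccr2 and 17 of Ccr1. Fcgr4 and Ace, markers of the Pecam1+ monocyte subset, were also among the leading genes of these cells. The 188 cells led by Jchain, a gene of antibody-secreting cells, held 19 UMIs of Cxcr4 in 8 cells and none of Cxcr5. Their leading genes also held Chga, a tumor marker.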

How the results depend on the processing

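Of 72 values across the immune classes, 16 were called in the report, and 9 to 12 without 1 of the tumors (9 of 42 values without tumor 1, where 6 receptors passed the filter). Under the other settings the count stayed between 11 (no integration) and 23 (tumor block). Of the 36 values between subsets, 2 were called in the report, 5 with no filter on low counts, 13 with the tumor block, 12 with the block among marker-positive cells, 1 with sums of at least 20 cells and 0 to 1 without 1 of the tumors. No direction was reversed. Calls of Ccr1 in neutrophil-like, Ccr2 in Ly6c2+ monocyte-like, Ccr7 in B cell-like and T cell-like and Cx3cr1 in Pecam1+ monocyte-like and Apoe+ macrophage-like cells were kept in 16 of 16 alternatives, that of Ccr9 in plasmacytoid dendritic-like cells in 15 of 15 and that of Cxcr6 in T cell-like cells in 11 of 11. Cxcr4 in neutrophil-like cells and Cx3cr1 in T cell-like cells each lost their call in 7 of 16, Ccr2 in plasmacytoid dendritic-like cells in 6 and Cx3cr1 in B cell-like cells in 5, and Ccr1 in Ly6c2+ monocyte-like cells lost it without integration (adjusted p = 0.0668 by edgeR). Apart from the values printed beside the results, the block changed no call. The class with the highest level held in all alternatives run (8 or 9) for each receptor except Ccr7 (7 of 9) and Cxcr4 (8 of 9, B cell-like without integration). The corrected counts gave values only for the 5 receptors that all 3 of the authors' normalized tables hold. The cause of these changes was not tested.

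Depth limits the sparse receptors. Cxcr3, Cxcr5 and Cxcr6 had few UMIs in tumors 2 and 3, and the floor of 3 UMIs ran from 1.74 to 76.2 CPM over the immune sums. The level of Cxcr6 in T cell-like cells (49.9 CPM) was 83.5 in marker-positive cells. NK cell-like cells had 1 sum, and the 3 tumors differed in age, depth and the share of tumor transcripts, which cannot be told apart.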
